A study of Mus musculus with 12 samples.

Results

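Pecam1, Esam and Nostrin, which mark endothelial cells, and Abcb1a and Abcg2, the main drug efflux pumps of the blood-brain barrier, were followed over 12 brains. The 5 genes were taken by name, with earlier results of these data known, from the 757 endogenous genes that the nCounter Glial Profiling Panel counts by hybridised barcodes. The brains came from male C57BL/6 mice in 3 groups of 4, taken 3 days after surgery. The CD73ko tMCAO group, mice labelled CD73ko, had tMCAO, a transient occlusion of the middle cerebral artery in which this brain artery was blocked for 50 min and then reopened. The flox tMCAO group, control mice labelled CD73floxed, had the same occlusion, and the flox sham group, control mice labelled CD73flox, had sham surgery. The labels name no Cre driver and no age, and no group of CD73ko mice with sham surgery was analysed here, so surgery and genotype differ together between CD73ko tMCAO and flox sham mice. CD73 is the surface enzyme that turns extracellular AMP into adenosine, and its gene Nt5e was not among the genes analysed here, so the knockout was not checked.

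The walls of brain capillaries are formed by endothelial cells that are sealed to each other by tight and adherens junctions, and this seal, with pumps in the membrane facing the blood, makes the blood-brain barrier. Pecam1 (CD31) and Esam are adhesion proteins of the immunoglobulin superfamily at the contacts between endothelial cells, and both are also found on platelets, Pecam1 on leukocytes as well. Nostrin is an adaptor that binds endothelial nitric oxide synthase and takes part in its trafficking. Abcb1a encodes a mouse form of P-glycoprotein, and Abcg2 encodes the breast cancer resistance protein, and both pumps use ATP to return drugs and other compounds to the blood.

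All 5 genes matched a RefSeq gene of assembly GRCm38.p6 by symbol. The sources used here do not say where on each transcript the probes bind. RefSeq promoter windows, 250 bases before to 50 after a gene start, were given for 3 of the 5 genes, with 1 window for Nostrin, 1 for Abcb1a and 3 for Abcg2. The windows of Nostrin (chr2:69135550-69135849, plus strand) and Abcb1a (chr5:8566841-8567140, plus strand) are shown, 5′ to 3′ on GRCm38.p6, as those of 1 gene that changed after tMCAO and 1 that did not pass the test. Capitals mark GGAA on either strand (TTCC in the printed strand), the core letters that ETS transcription factors, prominent regulators of endothelial genes, recognise.
Nostrin: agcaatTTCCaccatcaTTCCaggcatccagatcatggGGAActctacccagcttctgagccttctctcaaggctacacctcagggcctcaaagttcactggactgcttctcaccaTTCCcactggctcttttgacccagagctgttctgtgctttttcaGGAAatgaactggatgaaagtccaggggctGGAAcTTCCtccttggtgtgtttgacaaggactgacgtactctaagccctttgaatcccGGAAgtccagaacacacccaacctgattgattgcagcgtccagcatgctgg
Abcb1a: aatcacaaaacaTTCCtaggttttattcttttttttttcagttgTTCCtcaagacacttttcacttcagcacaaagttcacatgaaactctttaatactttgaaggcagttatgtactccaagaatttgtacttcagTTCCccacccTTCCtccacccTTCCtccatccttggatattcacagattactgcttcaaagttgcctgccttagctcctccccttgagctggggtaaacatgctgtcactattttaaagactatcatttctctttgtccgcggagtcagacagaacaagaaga
GGAA occurred 8 times in the Nostrin window and 5 times in the Abcb1a window, and 96% of all 32851 RefSeq mouse promoter windows of this length hold it. The longer form CCGGAA, which contains GGAA, occurred once in the Nostrin window, in none of the other 4 windows and in 14.9% of all windows. The 3 Abcg2 windows held GGAA 2, 6 and 2 times, the GC box GGGCGG 0, 2 and 4 times and TATAAA 1, 1 and 0 times, against 35.7% of all windows with a GC box and 13.6% with TATAAA. The GATA motif AGATAA was found in none of the 5 windows, where 11.2% of all windows hold it. The E-box CACGTG, present in 7.2% of all windows, was likewise in none of the 5. Each motif was searched on both strands. These matches describe letters, not sites.

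The total count over the 770 panel genes lay between 724655 and 848853 in 11 libraries and was 293589 in flox sham replicate 4. Values below are counts scaled by TMM, edgeR's trimmed mean of M-values, to a common library size; they compare mice for 1 gene and not genes with each other, since each probe binds with its own efficiency. The background limit of a library was set 2 SD above the average of its 8 negative probes. Pecam1, Esam, Abcb1a and Abcg2 were above background in all 12 mice, and Nostrin in 11, with 19 raw counts in flox sham replicate 2 against a limit of 19.4. Neuron, astrocyte and oligodendrocyte markers for whole brain were present, 14, 6 and 7 genes in number, all above background. The library of flox tMCAO replicate 3 stood apart: its summed count over the 7 oligodendrocyte genes was 13342, against 20945 to 22373 in the other 3 flox tMCAO mice.

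**Figure D1:**
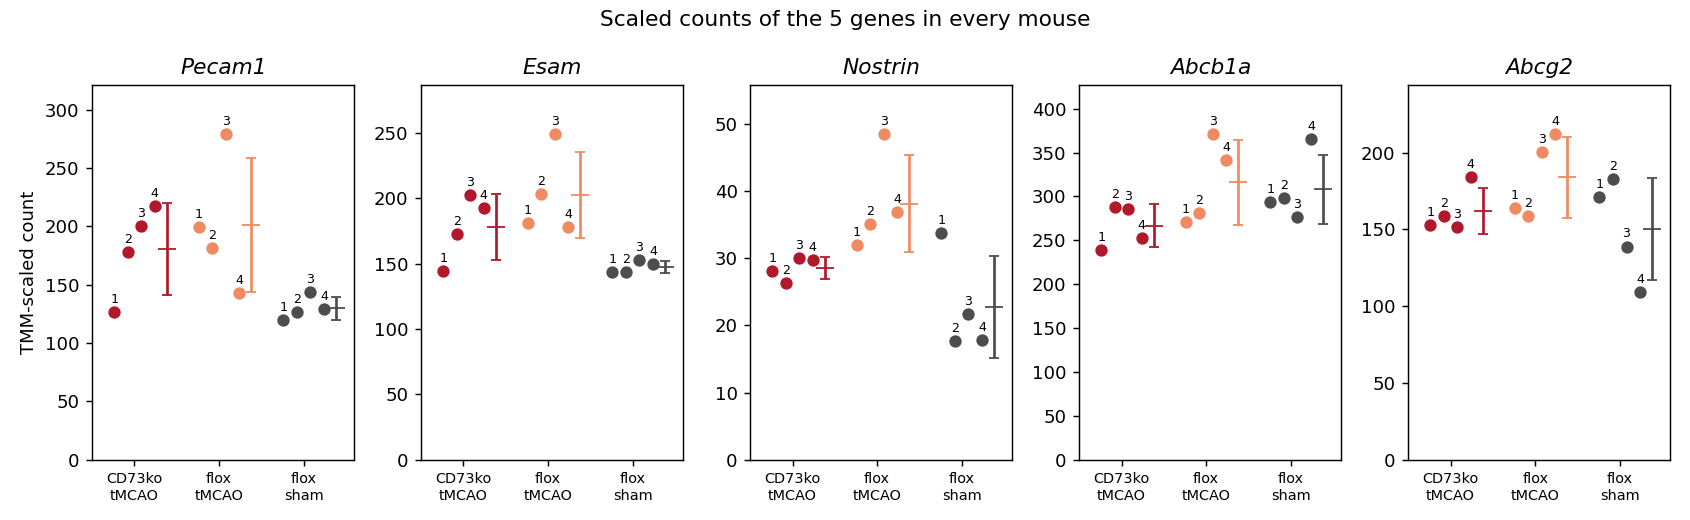
TMM-scaled counts (linear axes from 0) of the 5 genes in each mouse, with replicate numbers, and the mean ± SD of the 4 mice of each group beside the points. Esam was higher in all 4 flox tMCAO mice than in all 4 flox sham mice, the highest Pecam1, Esam, Nostrin and Abcb1a values belonged to flox tMCAO replicate 3, and Abcb1a and Abcg2 overlapped between all groups.

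The first comparison, flox tMCAO against flox sham, asked how the control brain responded to the occlusion. The 3 endothelial marker genes rose, by 1.38 to 1.61 times, while neither efflux pump passed the test. A gene was called where the p of edgeR's quasi-likelihood test, adjusted by Benjamini-Hochberg over 757 genes, was under 0.05, and in this comparison 14.1% of all genes were called higher, 7.93% were called lower and 22.1% were called in either direction. An unadjusted p under 0.05 was reached by the same 3 genes and by 33.8% of all genes. The median log2 fold change was 0.46 over the 5 genes and -0.01 over all 757 genes. In bulk brain RNA, more endothelial cells and more of a transcript per cell cannot be told apart.

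Pecam1 had 199.6, 181.4, 279.2 and 142.9 scaled counts in the 4 flox tMCAO mice, against 119.7, 126.8, 143.4 and 129.3 in the 4 flox sham mice. Of the flox tMCAO mice, 3 lay above every sham, and replicate 4, at 142.9, lay just under the highest sham. The mean was 200.8 ± 57.4 in flox tMCAO mice and 129.8 ± 9.96 in flox sham mice (SD, n = 4 each), and edgeR estimated a log2 fold change of 0.63 with an SE of 0.20 (adjusted p = 0.0312). The coefficient of variation was 28.6% in flox tMCAO mice, where counting error alone gives 7.12%, and 7.67% in flox sham mice, where counting error gives 9.78%. Without flox tMCAO replicate 3 the log2 fold change was 0.43 and the edgeR adjusted p = 0.0941. Leaving out flox tMCAO replicate 1 also ended the call (adjusted p = 0.0579), and so did leaving out replicate 1 (0.0862) or replicate 2 (0.076) of the flox sham mice.

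Esam had 181, 202.8, 249.2 and 177.6 scaled counts in the flox tMCAO mice, against 143.6, 143.6, 152.4 and 149.6 in the flox sham mice. All 4 flox tMCAO mice lay above all 4 shams, as did 14.5% of all genes, and Esam was the one gene of the 5 for which the groups did not overlap. The mean was 202.6 ± 33 in flox tMCAO mice and 147.3 ± 4.45 in flox sham mice (SD, n = 4 each), a log2 fold change of 0.46 ± 0.13 (SE, edgeR adjusted p = 0.019). The 4 shams lay closer together, with a coefficient of variation of 3.02%, than the 9.16% that counting error alone gives. The Esam call held without flox tMCAO replicate 3 (log2 fold change 0.35, adjusted p = 0.0473) and was lost when replicate 1 (adjusted p = 0.0516) or replicate 2 (0.0541) of the flox sham mice was left out.

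Nostrin had 31.93, 35.11, 48.48 and 36.79 scaled counts in the flox tMCAO mice, against 33.68, 17.71, 21.65 and 17.75 in the flox sham mice. The groups overlapped through flox sham replicate 1, which at 33.68 lay above the lowest flox tMCAO mouse. The mean was 38.1 ± 7.22 in flox tMCAO mice and 22.7 ± 7.55 in flox sham mice (SD, n = 4 each), a log2 fold change of 0.69 ± 0.22 (SE, edgeR adjusted p = 0.0341). Nostrin was the least counted of the 5 probes, with 35 to 50 raw counts in flox tMCAO libraries and 7 to 38 in flox sham libraries. The 7 raw counts of flox sham replicate 4 have an exact 95% Poisson interval of 2.81 to 14.4, which covers counting error only. The call held without flox tMCAO replicate 1 or flox sham replicate 1 and was lost with any one of the other 6 mice of these groups left out, with adjusted p up to 0.112 (without flox sham replicate 2).

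**Figure D2:**
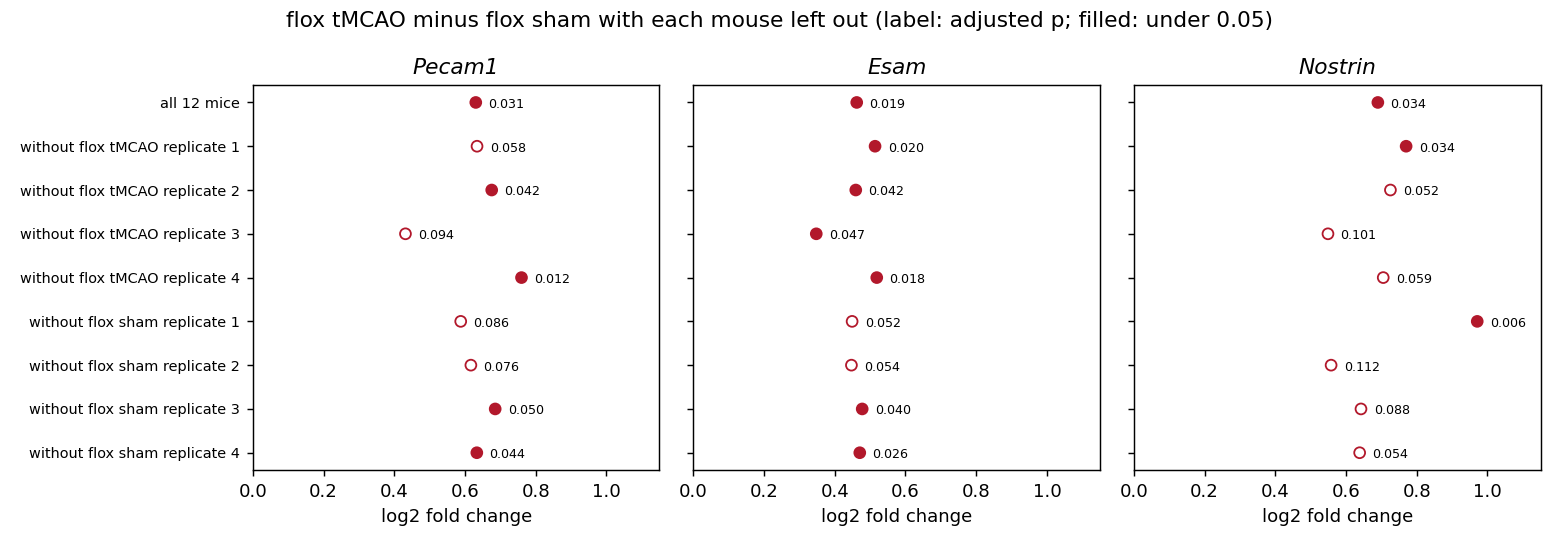
Log2 fold change (flox tMCAO minus flox sham) of Pecam1, Esam and Nostrin with all 12 mice and with each mouse of the 2 groups left out; filled points had an edgeR adjusted p, printed beside them, under 0.05. All estimates stayed above 0, and the lowest ones of Pecam1 (0.43), Esam (0.35) and Nostrin (0.55) came without flox tMCAO replicate 3.

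Neither efflux pump passed the test. Abcb1a had 270.5, 280.8, 371.3 and 341.6 scaled counts in the flox tMCAO mice, against 293.4, 298.3, 276 and 365.1 in the flox sham mice. The groups covered almost the same range, at 316.1 ± 48.4 in flox tMCAO mice and 308.2 ± 39.1 in flox sham mice (SD, n = 4 each). The top of the sham range, 365.1, came from the shallow library of flox sham replicate 4. Without it the shams lay between 276 and 298.3, inside the flox tMCAO range of 270.5 to 371.3. The log2 fold change of Abcb1a was 0.05 (95% interval -0.19 to 0.30, edgeR adjusted p = 0.776), and its sign turned, at -0.015, with scaling on the housekeeping genes. A rise of Abcb1a beyond 1.24 times or a fall below 0.87 times thus lay outside the interval, which was computed with flox sham replicate 4 included. With each mouse of the groups left out in turn, the log2 fold change lay between -0.029 and 0.13, and Abcb1a was never called. The probe was not shown to separate Abcb1a from its close paralogue Abcb1b.

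Abcg2 had 164.1, 159, 200.7 and 212.3 scaled counts in the flox tMCAO mice, against 171.1, 182.7, 138.9 and 109 in the flox sham mice. The groups overlapped, 2 flox tMCAO mice lying above every sham and the other 2 within the sham range, and the lowest value belonged to the shallow library of flox sham replicate 4, without which the log2 fold change was 0.16. The mean was 184 ± 26.5 in flox tMCAO mice and 150.4 ± 33.3 in flox sham mice (SD, n = 4 each), a log2 fold change of 0.25 (95% interval -0.06 to 0.56, edgeR adjusted p = 0.253). The interval of Abcg2 holds the estimate of Esam, so this test does not set the pump apart from the junction gene.

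The other endothelial genes give the setting of these changes. A further 44 endothelial genes stood in 2 lists, one of junction and adhesion genes and one of endothelial identity and signalling genes. Of the 44, 12 were counted, all above background. After tMCAO in flox mice 2 of the 12 were called higher and none lower, against 14.1% and 7.93% of all genes. F11r, which encodes the junctional adhesion molecule JAM-A and is also expressed by leukocytes and platelets, was at 114.2 ± 10.5 in flox tMCAO and 73.6 ± 6.91 in flox sham mice (SD, n = 4 each). Its log2 fold change was 0.61 ± 0.13 (SE, edgeR adjusted p = 0.00304). Adgrl4, an adhesion G protein-coupled receptor of endothelial cells, was at 136.3 ± 22.3 in flox tMCAO and 90.2 ± 16.1 in flox sham mice, a log2 fold change of 0.56 ± 0.18 (SE, adjusted p = 0.0394). For both genes, and for Tie1, which was not called, all 4 flox tMCAO mice lay above all 4 shams, as for 14.5% of all genes. The junction list held 1 call of 5 genes and a median log2 fold change of 0.20. Its claudin-5 gene Cldn5, the main tight junction claudin of brain endothelium, had 0.23 ± 0.13 (SE, adjusted p = 0.241), and Tjp1, which encodes the scaffold protein ZO-1, had -0.02 ± 0.07 (adjusted p = 0.836). The identity list held 1 call of 7 genes and a median of 0.22, and its next smallest p belonged to the angiopoietin co-receptor gene Tie1, at 0.42 ± 0.15 (SE, adjusted p = 0.0525). The number of calls among the 12 genes was 1 without any one of flox tMCAO replicates 1, 2 and 4 and flox sham replicates 1, 3 and 4, and 1 with scaling on the housekeeping genes or on the 12 genes themselves. Over all mice left out and over the alternative settings it lay between 1 and 3. A list of 18 barrier transporters beside the pumps was not analysed here. Of 15 other ABC transporter genes 2 were counted, and Abca1, a cholesterol exporter gene of many cell types, was called higher (0.53 ± 0.12, SE, adjusted p = 0.00436), while Abcc8 was not (-0.17 ± 0.22, adjusted p = 0.627).

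**Figure D3:**
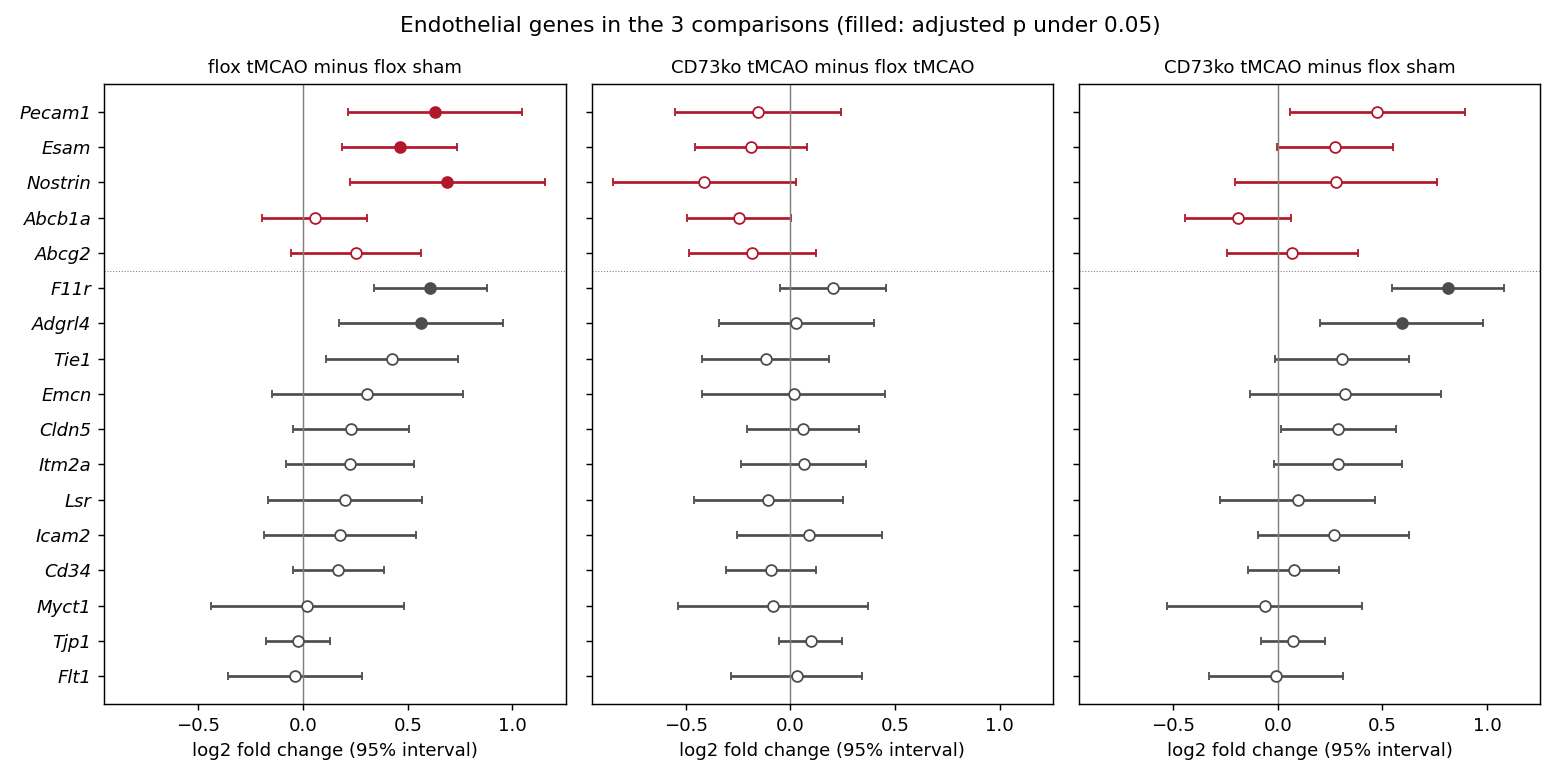
Log2 fold changes with 95% intervals from edgeR for the 5 genes (red, above the dotted line) and the 12 other endothelial genes (grey) in the 3 comparisons; filled points had an adjusted p under 0.05. Pecam1, Esam, Nostrin, F11r and Adgrl4 were called in flox tMCAO minus flox sham, no gene was called in CD73ko tMCAO minus flox tMCAO, and F11r and Adgrl4 were called in CD73ko tMCAO minus flox sham.

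Set against the other endothelial genes of the same mouse, which removes the library scaling, the 3 marker genes had smaller fold changes than on the TMM scale. The highest counts weigh most in that sum. In flox sham mice it averaged 2514 scaled counts, with 654.9 from Tjp1, 534.8 from Itm2a, 413.8 from Cd34 and 395.7 from Cldn5. Whether these counts come only from endothelial cells was not tested. Per 1000 counts of the 12 other endothelial genes, Pecam1 had 71.5 ± 24.8 counts in flox tMCAO mice and 51.6 ± 3.48 in flox sham mice (SD, n = 4 each). Esam had 71.9 ± 16.4 counts in flox tMCAO mice and 58.6 ± 1.71 in flox sham mice on the same scale, and Nostrin had 13.5 ± 3.43 in flox tMCAO mice and 9.1 ± 3.36 in flox sham mice. The highest ratio of Pecam1 and of Esam belonged to flox tMCAO replicate 3, at 106.7 for Pecam1 and 95.3 for Esam, and the other 3 flox tMCAO mice lay between 48.4 and 67.1 for Pecam1 and between 60.2 and 71.5 for Esam. With the counts scaled this way, a setting chosen after the data were seen, edgeR gave log2 fold changes of 0.46 for Pecam1 (adjusted p = 0.0586), 0.29 for Esam (adjusted p = 0.109) and 0.51 for Nostrin (adjusted p = 0.103), none of which passed. This scaling moved the median log2 fold change of all genes to -0.19, and 34.7% of all genes were then called.

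The ratio of junction gene to pump within a library needs no scaling either, and it is given as a description. The raw count of Esam over that of Abcb1a lay between 0.599 and 0.761 in CD73ko tMCAO mice, between 0.52 and 0.722 in flox tMCAO mice and between 0.41 and 0.552 in flox sham mice, so all 4 CD73ko tMCAO mice lay above all 4 shams. The ratio of Pecam1 to Abcb1a lay between 0.529 and 0.86 in CD73ko tMCAO mice, between 0.418 and 0.752 in flox tMCAO mice and between 0.354 and 0.52 in flox sham mice, again with every CD73ko tMCAO mouse above every sham. Of the other 756 genes, 26.2% had a ratio to Abcb1a that was higher in all 4 CD73ko tMCAO mice than in all 4 shams. The flox tMCAO mice overlapped the shams in both ratios. Abcb1a over Cldn5 lay between 0.539 and 0.619 in CD73ko tMCAO mice, between 0.518 and 0.929 in flox tMCAO mice and between 0.717 and 0.862 in flox sham mice, with every CD73ko tMCAO mouse below every sham, as for 7.94% of the other 756 genes over Cldn5. The other 6 of the 9 ratios computed overlapped between CD73ko tMCAO and flox sham mice: Nostrin over Abcb1a (0.0912 to 0.118 in CD73ko tMCAO mice, 0.0486 to 0.115 in flox sham mice), Pecam1 and Esam over Abcg2, and Pecam1, Esam and Abcg2 over Cldn5. Esam over Cldn5 covered nearly the same range, 0.325 to 0.415 in CD73ko tMCAO mice and 0.322 to 0.422 in flox sham mice.

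**Figure D4:**
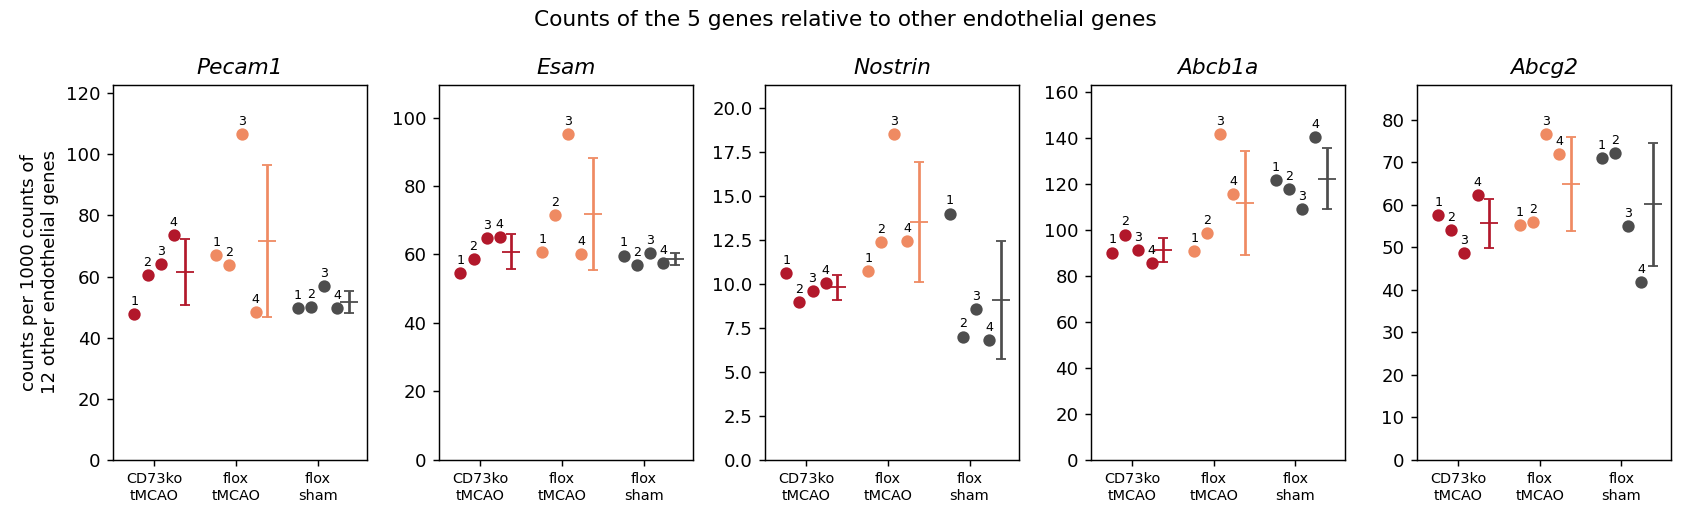
Raw counts of the 5 genes per 1000 summed counts of the 12 other endothelial genes in each mouse (linear axes from 0), with replicate numbers and the mean ± SD of the 4 mice of each group. Flox tMCAO replicate 3 was the highest mouse for all 5 genes. Its scaled sum of the 12 genes, which enters all 5 ratios, was 2616, the lowest among the tMCAO mice. The 4 CD73ko tMCAO mice had 85.53 to 98.102 for Abcb1a, below the 109.4 to 140.5 of the 4 flox sham mice. On this scale 25.9% of the 745 genes lay lower in the same way.

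Genes of the monocyte and macrophage, microglia, neuron, astrocyte and oligodendrocyte lists were also called in the same comparison. Of all 757 genes, 14.1% were called higher in it and 7.93% lower. A single call, as in the astrocyte and oligodendrocyte lists, does not set a short list apart from that share. Whether any of these transcripts came from blood-derived cells was not tested. Of 13 monocyte and perivascular macrophage genes 5 were counted and 4 were called higher in flox tMCAO than in flox sham mice, with Cd84, Lyz2 and Msr1 leading by p and Cd163, a perivascular macrophage marker, not called (0.01 ± 0.28, SE, adjusted p = 0.985). Their summed scaled count lay between 548.7 and 642.2 in flox tMCAO mice and between 117.001 and 157.207 in flox sham mice. Of 14 microglia genes, all counted, 10 were called higher, and their summed count lay between 3648 and 6377 in flox tMCAO mice and between 2444 and 2820 in flox sham mice. Of 23 neuron genes 14 were counted and 8 were called lower, led by Grin2a, Tbr1 and Gad1, with a median log2 fold change of -0.23 and 13 of 14 estimates lower. Their summed count lay between 25670 and 28251 in flox tMCAO mice and between 29393 and 32704 in flox sham mice, and the number called lower was 3 with replicate 1 of the flox sham mice left out, and 5 with replicate 3 of either group left out. Of 10 astrocyte genes 6 were counted and 1 was called higher, Gfap, with a log2 fold change of 2.05 ± 0.17 (SE, edgeR adjusted p = 2.13e-06), and the summed astrocyte count lay between 8782 and 10398 in flox tMCAO mice and between 5925 and 6126 in flox sham mice. Gfap alone averaged 3824 scaled counts in flox tMCAO mice and 937 in flox sham mice, within mean astrocyte sums of 9567 and 6041. The other 5 counted astrocyte genes were not called. Without flox sham replicate 4 the number of astrocyte genes called was 2. Of 12 oligodendrocyte genes 7 were counted and 1 was called higher, the myelin gene Mbp (0.28 ± 0.06, SE, adjusted p = 0.00252); 3 of the 7 were called without flox tMCAO replicate 3, and 0 with scaling on the endothelial genes. None of these markers was at 0 in any mouse. Of 10 neutrophil genes 1 was counted, Csf3r (0.49 ± 0.26, SE, adjusted p = 0.215), and a list of 8 platelet and megakaryocyte genes was not analysed here. The part of these cells in the Pecam1, Esam and Nostrin results was not tested.

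Within groups, Pecam1 and Esam varied together. After each group's mean was subtracted from log2(scaled count + 1), the correlation of Pecam1 with Esam over the 12 mice was Pearson's r = 0.90 (Spearman's rho 0.84), and r = 0.76 over the 10 mice left without CD73ko tMCAO replicate 1 and flox tMCAO replicate 3. Among the other 711 genes above background, the 3 most like Pecam1 on this measure were Ms4a4a (r = 0.94), a gene of macrophages, Esam (r = 0.90) and Gas6 (r = 0.88), a ligand of TAM receptor kinases. Ms4a4a was at 113.4 scaled counts in flox tMCAO replicate 3, where Pecam1 was highest, and at 22.5 and 28.4 in CD73ko tMCAO replicate 1 and flox tMCAO replicate 4, where Pecam1 was lowest in its group. For Esam the 3 were Pecam1, Gas6 (r = 0.90) and Pdgfra (r = 0.87), the receptor gene that marks oligodendrocyte progenitors. For Nostrin they were Prkab2 (r = 0.76), Egfr (r = 0.75) and Mkrn1 (r = 0.74), and over the 10 mice left without flox sham replicate 1 and flox tMCAO replicate 3 the value of Prkab2 was 0.48. For Abcb1a they were Gfap (r = 0.79), the intermediate filament gene of astrocytes, Phyh (r = 0.78) and Abca1 (r = 0.76), and for Abcg2 they were Rad23b (r = 0.89), Ube4b (r = 0.88) and C4a/b (r = 0.88). Abcg2, Rad23b, Ube4b and C4a/b all had their lowest deviation in the shallow library of flox sham replicate 4. Over the 10 mice left without it and flox tMCAO replicate 1, Rad23b had r = 0.82 with Abcg2. The pumps did not vary together (r = -0.03), although r was 0.50 without flox sham replicates 2 and 4, and Pecam1 had r = 0.22 with Nostrin. These correlations describe 12 mice that share a library for each pair of genes, and the best matches were picked from all genes.

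**Figure D5:**
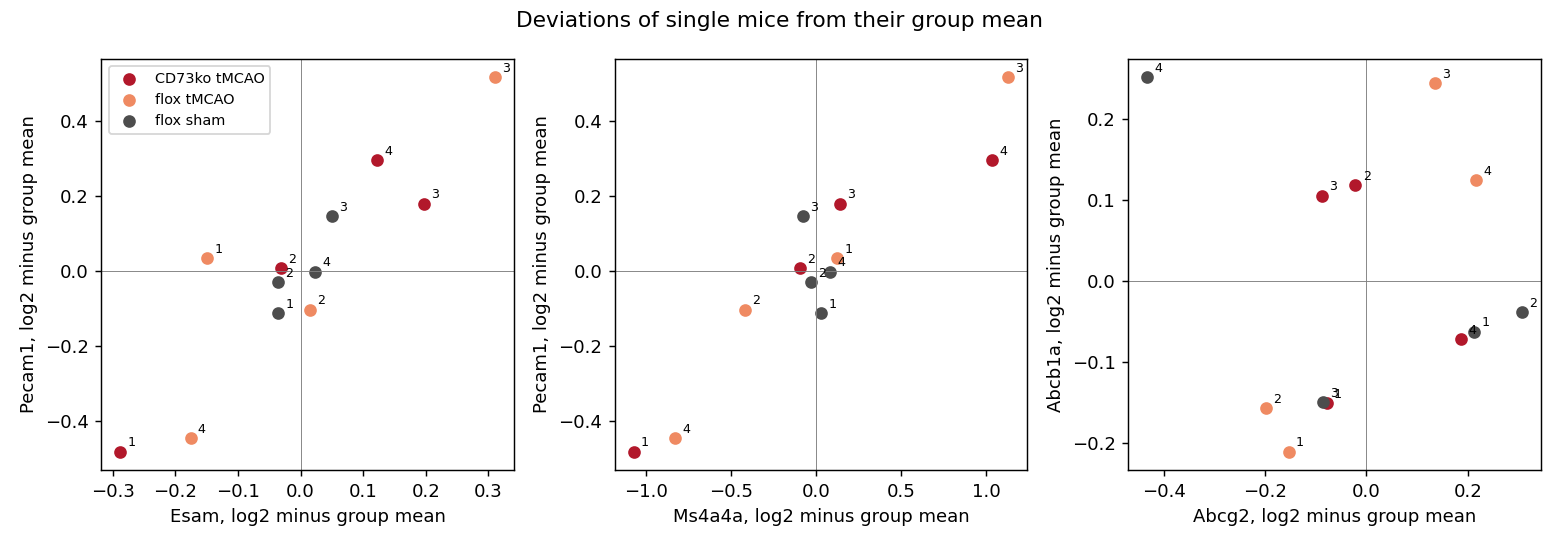
Deviation of each mouse from its group mean, as log2(scaled count + 1), for Pecam1 against Esam, Pecam1 against Ms4a4a and Abcb1a against Abcg2, with replicate numbers. Pecam1 lay highest in flox tMCAO replicate 3 and lowest in CD73ko tMCAO replicate 1 in both of the first panels, and the pumps showed no common order.

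The second comparison, CD73ko tMCAO against flox tMCAO, asked whether the genotype changed the state of these genes after the occlusion. None of the 5 genes was called by edgeR, where 0% of all 757 genes were called in either direction, 0 by DESeq2 and 0 by limma; 6.21% of all genes and 0 of the 5 had an unadjusted p under 0.05. All 5 estimates were lower in CD73ko mice, with a median log2 fold change of -0.19 over the 5 genes and 0.03 over all 757, of which 305 had lower and 452 had higher estimates. The 5 estimates share the same mice, and flox tMCAO replicate 3 lay above its group mean for all 5 genes, by 0.31 in log2 on average. With each mouse left out in turn, the highest estimates were 0.04 for Pecam1, -0.07 for Esam, -0.27 for Nostrin, -0.16 for Abcb1a and -0.11 for Abcg2.

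Pecam1 had 126.5, 177.9, 200.5 and 217.3 scaled counts in the CD73ko tMCAO mice, a mean of 180.6 ± 39.5, against 200.8 ± 57.4 in flox tMCAO mice (SD, n = 4 each). Its log2 fold change was -0.15 (95% interval -0.55 to 0.24, edgeR adjusted p = 0.842), and it was 0.04 without flox tMCAO replicate 3. Esam had 144.3, 172.7, 202.4 and 192.3 in the CD73ko tMCAO mice, a mean of 177.9 ± 25.6, against 202.6 ± 33 in flox tMCAO mice, with a log2 fold change of -0.19 (95% interval -0.45 to 0.08, adjusted p = 0.822). Both genes overlapped widely between the genotypes, and the lowest CD73ko value of each belonged to replicate 1, which also had the lowest summed count of monocyte and macrophage genes among tMCAO mice, 304.6.

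Nostrin had 28.1, 26.3, 30 and 29.7 scaled counts in the CD73ko tMCAO mice, a mean of 28.5 ± 1.69, against 38.1 ± 7.22 in flox tMCAO mice (SD, n = 4 each). All 4 CD73ko mice lay below all 4 flox tMCAO mice, as did 1.06% of all genes, while 2.77% lay above and 3.83% did not overlap in either direction. The log2 fold change was -0.41 (95% interval -0.85 to 0.03, edgeR adjusted p = 0.786), so the difference did not pass. The CD73ko mice lay closer together, with a coefficient of variation of 5.93%, than the 18.4% that counting error alone gives for 25 to 32 raw counts.

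Abcb1a had 239, 288.5, 285.8 and 252.6 scaled counts in the CD73ko tMCAO mice, a mean of 266.5 ± 24.5, against 316.1 ± 48.4 in flox tMCAO mice (SD, n = 4 each). Its log2 fold change of -0.25 (95% interval -0.49 to 0.00, edgeR adjusted p = 0.785) had the smallest unadjusted p of the 5 genes, 0.051, and rank 48 of 757. Abcg2 had 152.8, 159, 151.8 and 183.9 in the CD73ko tMCAO mice, a mean of 161.9 ± 15, against 184 ± 26.5 in flox tMCAO mice, with a log2 fold change of -0.18 (95% interval -0.49 to 0.12, adjusted p = 0.835). Both pumps overlapped between the genotypes, and the lower bounds leave room for levels down to 0.71 times those of flox tMCAO mice. None of the 12 other endothelial genes was called between the genotypes, and their median log2 fold change was 0.03; F11r, with the smallest p of the junction list, had 0.20 ± 0.12 (SE, adjusted p = 0.809) and Cd34, with the smallest of the identity list, -0.09 ± 0.10 (adjusted p = 0.835). The monocyte and macrophage list and the microglia list held 0 calls of 5 and 0 of 14, with median log2 fold changes of 0.25 and 0.34, and the neuron and astrocyte lists held 0 of 14 and 0 of 6.

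The third comparison, CD73ko tMCAO against flox sham, shares the shams with the first. None of the 5 genes was called by edgeR, where 22.7% of all genes were called in either direction, 16.1% higher and 6.61% lower, and the median log2 fold change was 0.27 over the 5 genes and 0.00 over all 757. By unadjusted p under 0.05, Pecam1 passed and the other 4 did not, against 35.4% of all genes. The groups overlapped for all 5 genes, where 16.9% of all genes were higher without overlap, 9.51% lower and 26.4% either way. Pecam1 was at 180.6 ± 39.5 in CD73ko tMCAO mice and 129.8 ± 9.96 in flox sham mice (SD, n = 4 each), a log2 fold change of 0.48 (95% interval 0.06 to 0.90, edgeR adjusted p = 0.0964). CD73ko replicate 1, at 126.5, lay within the sham range and the other 3 CD73ko mice lay above it; without that mouse the log2 fold change of Pecam1 was 0.59 and the adjusted p = 0.0284. Esam had a log2 fold change of 0.27 (95% interval -0.00 to 0.55, adjusted p = 0.146), with 3 of 4 CD73ko mice above all shams, and Nostrin had 0.28 (95% interval -0.20 to 0.76, adjusted p = 0.407), within the sham range in all 4.

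Abcb1a was at 266.5 ± 24.5 in CD73ko tMCAO mice and 308.2 ± 39.1 in flox sham mice (SD, n = 4 each), a log2 fold change of -0.19 (95% interval -0.44 to 0.06, edgeR adjusted p = 0.278). Per 1000 counts of the 12 other endothelial genes it had 91.3 ± 5.18 counts in CD73ko tMCAO mice and 122.5 ± 13.1 in flox sham mice, and all 4 CD73ko mice lay below all 4 shams, as for 25.9% of the 745 genes outside the 12. On that scaling edgeR called Abcb1a lower (log2 fold change -0.41, adjusted p = 0.0142), where 33.9% of all genes were called lower, 45.6% were called in either direction and the median of all genes moved to -0.21. Abcg2 was at 161.9 ± 15 in CD73ko tMCAO mice and 150.4 ± 33.3 in flox sham mice, a log2 fold change of 0.07 (95% interval -0.24 to 0.38, adjusted p = 0.781), whose sign turned with scaling on the median (-0.017), on the housekeeping genes (-0.026) and on the endothelial genes (-0.15).

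F11r and Adgrl4 were again the 2 of 12 other endothelial genes called, at log2 fold changes of 0.81 ± 0.12 (SE, edgeR adjusted p = 0.000182) and 0.59 ± 0.18 (adjusted p = 0.0306). Both were called higher in CD73ko tMCAO than in flox sham mice, as were 16.1% of all genes. The number called was 1 without any one of CD73ko replicates 3 and 4 and flox sham replicates 1, 3 and 4. It lay between 1 and 3 over all mice left out and over the alternative settings. F11r was higher in all 4 CD73ko mice than in all 4 shams, as were 16.9% of all genes. It was at 131.5 ± 16.2 in CD73ko tMCAO and 73.6 ± 6.91 in flox sham mice (SD, n = 4 each). The summed count of the monocyte and macrophage genes lay between 304.6 and 1043 in CD73ko tMCAO mice and between 117.001 and 157.207 in flox sham mice, and that of the microglia genes between 4884 and 6838 in CD73ko tMCAO mice and between 2444 and 2820 in flox sham mice. In this comparison 4 of 5 monocyte and macrophage genes and 11 of 14 microglia genes were called higher. Of all genes, 16.1% were called higher and 6.61% lower. Of the 14 neuron genes 4 were called lower (1 without any one of CD73ko tMCAO replicates 2, 3 and 4, 2 without flox sham replicate 1, 7 without CD73ko tMCAO replicate 1), and of the 6 astrocyte genes 2 were called higher, Gfap (2.20 ± 0.17, SE, adjusted p = 7.05e-07) and the water channel gene Aqp4 (0.46 ± 0.11, adjusted p = 0.00794). Their part in the Pecam1 estimate was not tested.

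By group mean, Pecam1, Esam, Nostrin and Abcg2 had the order flox tMCAO, CD73ko tMCAO, flox sham, highest first, and Abcb1a had flox tMCAO, flox sham, CD73ko tMCAO. The neighbours flox tMCAO and CD73ko tMCAO did not differ past the threshold for any of the 4, and neither did CD73ko tMCAO and flox sham. The distance between the ends of the order, flox tMCAO and flox sham, passed for Pecam1, Esam and Nostrin and not for Abcg2, and for Abcb1a no pair of groups passed.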

How the data were processed

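Whole brain RNA of 12 mice was counted with the nCounter Glial Profiling Panel. The deposited value table holds raw counts, whole numbers with control probes still included. The sources used here name no counting software or background step. The 8 negative and 6 positive control probes and 13 housekeeping genes stayed out of the tests. The housekeeping genes are those that the header of the authors' normalised tables leaves out; the values of these 2 tables were not used, because their 11 running sample names in each match no label. Groups and replicate numbers came from sample titles.

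Differences were tested with the quasi-likelihood F test of edgeR 4.0.16 under R 4.3.3, after TMM scaling, with one coefficient per group over all 12 mice, Benjamini-Hochberg adjustment over 757 genes at 0.05 and no filter on low counts. The SE was derived from the log2 fold change and its F value, and 95% intervals were based on 14.4 degrees of freedom. Scaled counts are counts at the mean effective library size. Background was the negative mean plus 2 SD, passed in at least 3 of 4 mice of a group by 712 genes. Only the TMM scaling and the edgeR test, for flox tMCAO minus flox sham, were tested on simulated counts. Alternatives were 3 other scalings, DESeq2 1.42.0, limma 3.58.1 with pseudocounts of 1 and 10, subtraction of negative probes, a background filter, only the 2 groups compared, a replicate block, each mouse left out and a threshold of 0.01. Scaling on 12 other endothelial genes was added after the data were seen.

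The members and lists were chosen with earlier results of these data known. Named genes were the 5 members, up to 3 called genes per list by smallest p or else the one with the smallest p, and 3 genes most like each member; for microglia only counts are given, and further genes are named where a figure or sentence on junctions needs them. Depth was 293589 to 848853 counts per library.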

Additional observations from a re-analysis of the deposited data

How the results depend on the processing

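No value of a member in any of the 3 groups of 4 mice stood apart by Dixon's test. Beside sample size, depth limits Nostrin most, with 7 to 50 raw counts. In flox tMCAO minus flox sham the 167 calls became 96 at a threshold of 0.01 and 263 with scaling on the 12 other endothelial genes; they split into 107 higher and 60 lower, and 89 and 99 with housekeeping scaling. At 0.01 none of Pecam1 (0.63), Esam (0.46) and Nostrin (0.69) passed. Pecam1 did not pass with limma at a pseudocount of 1 (0.59, adjusted p = 0.0653) or 10 (0.56, 0.0558) or with endothelial scaling (0.46), nor Esam with the last (0.29). Nostrin did not pass with housekeeping scaling (0.61, adjusted p = 0.0557), negative probes subtracted (0.94, 0.0522), only 2 groups (0.69, 0.0695), the replicate block (0.70, 0.0509) or endothelial scaling (0.51). Abcb1a changed sign with housekeeping (-0.015) and endothelial (-0.12) scaling.

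With each mouse left out, the log2 fold change in that comparison lay between 0.43 and 0.76 for Pecam1, 0.35 and 0.52 for Esam, 0.55 and 0.97 for Nostrin, and -0.029 and 0.13 for Abcb1a, and the calls numbered 125 to 206. In CD73ko tMCAO minus flox tMCAO the calls numbered 0 throughout, and Pecam1 lay between -0.28 and 0.044. In CD73ko tMCAO minus flox sham the 172 calls became 99 at 0.01, 345 with endothelial scaling and 110 (without CD73ko replicate 3) to 229 with a mouse left out; 122 higher and 50 lower became 106 and 120 with median scaling, 101 higher among 218 with housekeeping scaling and 121 and 92 with DESeq2. There Pecam1 lay between 0.37 and 0.59 and Abcg2 between -0.040 and 0.15 with a mouse left out, Abcb1a passed with endothelial scaling (-0.41), and Abcg2 changed sign with median (-0.017), housekeeping (-0.026) and endothelial (-0.15) scaling. The cause of these changes was not tested.

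No pairing of the mice by replicate number was seen: same-numbered mice had correlations of their deviations between -0.25 and 0.17, and 2, 3 and 2 of 8 mice correlated best with their own number in the 3 comparisons. A batch shared by same-numbered mice was not tested. With the replicate block the calls numbered 145, 0 and 146 in the order above.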

Other observations

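Cspg4, a proteoglycan gene of pericytes and oligodendrocyte progenitors and the only one counted of 14 pericyte and smooth muscle genes, was at 93.2 ± 9.72 scaled counts in CD73ko tMCAO mice and 71 ± 11.1 in flox sham mice (SD, n = 4 each), a log2 fold change of 0.43 ± 0.13 (SE, edgeR adjusted p = 0.0297). In flox tMCAO mice it was at 80.1 ± 4.99, with 0.21 ± 0.13 against flox sham (adjusted p = 0.298), and the CD73ko tMCAO and flox tMCAO mice did not differ past the threshold (0.22 ± 0.13, adjusted p = 0.809). Vegfa, the vascular endothelial growth factor A gene and the only one counted of 22 vascular activation and angiogenesis genes, was called in none of the 3 comparisons, at -0.13 ± 0.12 in flox tMCAO against flox sham mice (SE, adjusted p = 0.47). A list of 7 choroid plexus genes was not analysed here.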
